A study of Mus musculus with 4 samples.

Results

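Imprinted genes are expressed mainly from the copy inherited from a single parent, and 45 of them, in 18 clusters, were examined here in mouse embryonic stem cells with and without the G784E change in Smarca4. The genes were taken from a list of well-known mouse imprinted genes, by symbol, and all 45 were among the 24428 genes of the count tables. Smarca4 encodes BRG1, the motor subunit of BAF remodelling complexes, which move nucleosomes, and the study's title describes G784E as dominant-negative. All cells were of strain 129SvEv, at passage 15 to 20, grown untreated in serum with LIF, and had GFP fused to 1 Smarca4 allele, which was wild-type. Their other allele, fused to the V5 tag, was G784E in the heterozygous mutant group and wild-type in the WT group. RNA-seq of poly(dT)-captured RNA gave 2 libraries per group. The labels do not say whether replicates came from separate cultures or clones. The p-values weigh the group difference only against the spread of these libraries, estimated in part across genes, and that spread may be technical.

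Many imprinted genes lie in clusters governed by imprinting control regions. These are stretches of DNA methylated in either the egg or the sperm that keep the mark after fertilisation. Within a cluster some genes are active on the maternal copy and others on the paternal copy, often with a long noncoding RNA that silences its neighbours on the same chromosome. Many of the products set fetal and placental growth, and imprints are known to be variable in cultured mouse stem cells. The counts here hold no allele information. A change in the activity of the expressed copy and activity of the normally silent copy therefore cannot be told apart.

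Counts assigned to genes came to 6226145 and 8895433 in the G784E libraries and to 7027108 and 10083442 in the WT libraries. Levels below are CPM (a gene's count relative to the library total, with totals scaled by the TMM method), with mean ± SD over n = 2 libraries, and 1 count stood for 0.102 to 0.164 CPM. A gene was called changed when edgeR's quasi-likelihood test gave an adjusted p under 0.05 over all tested genes, and log2 fold changes are G784E over WT. Smarca4 stood at 3868 and 3580.2 CPM in G784E and at 2423 and 2553 CPM in WT, which does not distinguish the alleles. Background was read from olfactory receptor genes, whose 95th percentile per gene was 2.13 (G784E) and 1.85 CPM (WT) in the replicates numbered 1 and 1.04 (G784E) and 0.711 CPM (WT) in those numbered 2. Markers of embryonic stem cells were present in every library, at a summed 2106 and 2260.1 CPM in G784E and 1807 and 2012 CPM in WT. Of these, 0 of 8 passed edgeR's test (1 had an unadjusted p under 0.05). All 8 lay above 0, with a median log2 fold change of 0.21.

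Of the 45 imprinted genes, 39 had enough counts to be tested, and 5 of these passed. Igf2 fell 2.70-fold, and Grb10, Gab1, Phlda2 and Mest rose 2.28-fold, 2.12-fold, 1.99-fold and 1.85-fold. Over all 15763 tested genes, 2.56% were called (0.672% higher and 1.89% lower), against 12.8% of the tested imprinted genes. These imprinted genes were chosen with earlier results of these data known, so the shares here and below are descriptions without a test. Imprinted genes at a mean of 10 CPM or more were called in 5 of 25 cases, where 4.33% of all genes at that level were. The 5 genes that passed lie in 5 different clusters, so no cluster had more than 1 called gene. At an unadjusted p under 0.05 there were 13 of 39, where 1831 of all tested genes (11.6%) reached that level.

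The promoters of these genes are shown because some imprinting control regions include methylated CpG-rich sequence near gene starts. A further reason is ZFP57, the zinc finger protein that keeps imprints, which recognises the letters TGCCGC when methylated. The windows were placed by start site, and whether any is a control region was not tested. Sequences are from RefSeq on build GRCm38.p6, which differs from the mm9 build of the counts; 38 of the 45 genes matched the table by symbol. For each called gene the window of 250 bases before a start site with the most matches, then the most CpG, was taken, leaving out windows with more than 30 bases in exons of the same gene; Phlda2 had no window left. Capitals mark TGCCGC or its reverse complement GCGGCA, searched on both strands.
Mest (chr6:30737800-30738049, + strand): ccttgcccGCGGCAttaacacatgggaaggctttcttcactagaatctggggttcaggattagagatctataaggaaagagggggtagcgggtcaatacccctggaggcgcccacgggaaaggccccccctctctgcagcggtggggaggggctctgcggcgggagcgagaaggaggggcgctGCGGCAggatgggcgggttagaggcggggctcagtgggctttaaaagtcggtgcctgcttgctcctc
Grb10 (chr11:12037421-12037670, - strand): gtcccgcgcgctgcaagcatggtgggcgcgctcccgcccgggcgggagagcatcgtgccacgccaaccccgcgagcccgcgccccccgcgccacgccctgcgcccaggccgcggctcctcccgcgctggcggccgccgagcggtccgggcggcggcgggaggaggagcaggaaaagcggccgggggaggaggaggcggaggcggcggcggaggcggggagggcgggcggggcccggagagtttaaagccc
Gab1 (chr8:80880520-80880769, - strand): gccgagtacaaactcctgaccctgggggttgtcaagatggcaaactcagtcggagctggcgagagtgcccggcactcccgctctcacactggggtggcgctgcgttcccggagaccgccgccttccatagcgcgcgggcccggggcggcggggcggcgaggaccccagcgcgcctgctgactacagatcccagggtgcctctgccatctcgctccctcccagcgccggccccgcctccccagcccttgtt
Igf2 (chr7:142657497-142657746, - strand, 1 of 4 windows): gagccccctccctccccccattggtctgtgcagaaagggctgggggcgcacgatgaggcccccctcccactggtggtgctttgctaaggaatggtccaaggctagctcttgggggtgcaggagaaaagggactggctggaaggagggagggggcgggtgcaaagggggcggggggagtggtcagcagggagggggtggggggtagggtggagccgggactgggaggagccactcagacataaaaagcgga
The Mest window held 2 matches and 14 CpG, and the Grb10, Gab1 and Igf2 windows held none and 40, 24 and 6 CpG. The other 3 windows of Igf2, not shown, held no match and 1, 10 and 22 CpG. Windows not shown of Grb10 and Gab1 held no match and 8 and 25 CpG. Those of Mest held no match and 7 CpG, and, in a nearly identical window, 2 matches and 14 CpG. The shown windows were picked for matches and CpG, so they are not to be set against the figures for all windows. Over all promoter windows of this length, 8.68% held a match and the median number of CpG was 6. Of the 56 windows of imprinted genes, 12.5% held a match, from 6 genes (Mest, Copg2, Zim1, Plagl1, Meg3 and Mcts2), and the median was 10 CpG. A match is a description of these letters and no measure of binding or methylation.

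In the H19-Igf2 cluster on chromosome 7, the paternally expressed growth factor gene fell and its maternally expressed noncoding neighbour lay higher. Igf2, which encodes insulin-like growth factor 2, stood at 76.9 and 67.4 CPM in G784E replicates 1 and 2 and at 191 and 198 CPM in WT replicates 1 and 2. Both G784E libraries were far below both WT libraries, with means of 72.1 ± 6.74 and 194 ± 5.40 CPM. The log2 fold change was -1.43 (SE 0.20; edgeR, adjusted p = 9.27e-05). H19, a noncoding RNA that shares enhancers with Igf2, stood at 27.3 and 16.6 CPM in G784E and at 16.2 and 10.9 CPM in WT. The H19 groups did not overlap, but by less than 1 CPM, and the log2 fold change of 0.69 (SE 0.30) did not pass (edgeR, adjusted p = 0.335). H19 passed under 1 of 12 alternatives, without G784E replicate 2 (1.04, edgeR, adjusted p = 0.0157), and was at 0.32 (edgeR, adjusted p = 0.760) without G784E replicate 1 and at 0.43 (edgeR, adjusted p = 0.954) without WT replicate 2.

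The ratio of Igf2 to H19 counts, which does not depend on how libraries are scaled, was 2.81 and 4.06 in G784E and 11.7 and 18.2 in WT. It was lower in both G784E libraries, by 4.33-fold on average. An exact two-sided permutation test over libraries gave p = 0.333, the smallest value that 2 against 2 libraries allow. In the GENCODE M21 annotation, 64.5% of the exon bases of Igf2 are shared with an overlapping readthrough gene and the antisense gene Igf2os. Igf2os had its own counts, at 2.54 ± 1.26 CPM in G784E and 3.26 ± 0.128 CPM in WT, and did not pass (edgeR, adjusted p = 0.991).

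Markers of another cell type moved with Igf2, a gene known to be active in extraembryonic endoderm. Of 10 tested markers of primitive and visceral endoderm, 9 fell and all 10 lay lower in G784E, with a median log2 fold change of -3.57. Their summed level was 152 and 148 CPM in G784E and 1946 and 2149 CPM in WT, and no marker was at 0 in any library. In G784E they ran from Foxa2 (0.491 and 0.353 CPM), below the olfactory background, to Col4a1 (63.0 and 56.9 CPM). The part of these cells in the change of Igf2 was not tested. In bulk samples, fewer cells of a type and less RNA per cell cannot be told apart. Of 8 trophectoderm markers, 3 fell (Eomes, Krt8 and Krt18, 37.5%, where 2.56% of all tested genes were called). By log2 fold change 6 of the 8 lay below 0 and 2 above 0, Cdx2 (0.13) and Tfap2c (0.65), neither passing. The 8 summed to 61.5 and 54.8 CPM in G784E and 99.96 and 106 CPM in WT. Of 6 tested fibroblast markers and 6 tested neural markers, 0 passed edgeR's test, with 0 and 1 at an unadjusted p under 0.05. All 8 listed fibroblast markers summed to 1165 to 1305 CPM, of which Fn1 alone gave 1090 to 1239 CPM. The neural markers summed to 30.9 to 42.9 CPM.

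**Figure D1:**
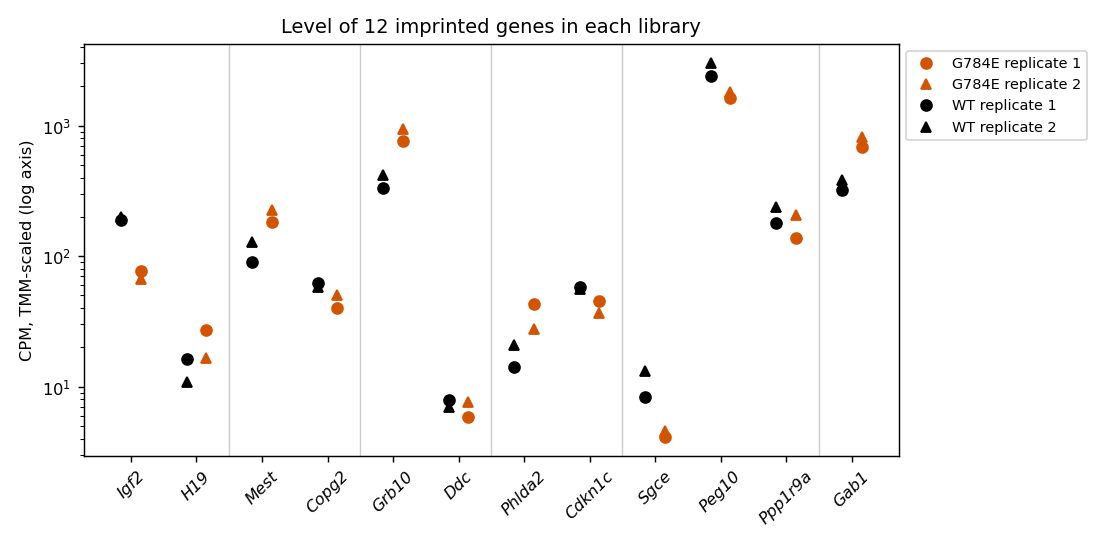
Level of 12 imprinted genes in each of the 4 libraries, in TMM-scaled CPM on a log axis, with vertical lines between clusters; black is WT, orange is G784E, circles are replicate 1 and triangles replicate 2. Igf2 lies lower in both G784E libraries, while Mest, Grb10, Phlda2 and Gab1 lie higher, and the neighbouring genes Copg2, Ddc and Cdkn1c overlap or lie lower.

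In the Mest cluster on chromosome 6 the neighbours Mest and Copg2 lay in opposite directions. Mest, a paternally expressed gene for a hydrolase-like protein of mesoderm, stood at 184 and 224 CPM in G784E and at 90.9 and 129 CPM in WT. Every G784E library exceeded every WT library, and Mest rose 1.85-fold (log2 fold change 0.89, SE 0.21; edgeR, adjusted p = 0.0212). The call was lost without WT replicate 1, the lowest library (0.66, edgeR, adjusted p = 0.532). Copg2, which encodes a coatomer subunit and is expressed from the maternal copy where it is imprinted, stood at 39.9 and 50.8 CPM in G784E and at 62.5 and 58.2 CPM in WT. It did not pass (log2 fold change -0.41, SE 0.21; edgeR, adjusted p = 0.504). Mest counts were 4.61 and 4.42 times those of Copg2 in G784E and 1.45 and 2.23 times in WT (exact two-sided permutation p = 0.333, again the smallest possible). The genes overlap tail to tail, with 23.1% of Mest exon bases shared with Copg2, and without a stated strand setting reads there cannot be assigned.

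Grb10, on chromosome 11, rose without its neighbour. Its product is an adaptor that restrains insulin and insulin-like growth factor receptor signalling, and it is expressed from the maternal copy in most tissues and the paternal copy in neurons. Grb10 stood at 766 and 943 CPM in G784E and at 332 and 418 CPM in WT. The lowest G784E library was well above the highest WT library, with means of 854 ± 125 and 375 ± 60.7 CPM. The log2 fold change was 1.19 (SE 0.21; edgeR, adjusted p = 0.000969). Ddc, the adjacent gene for aromatic amino acid decarboxylase, stood at 5.89 and 7.66 CPM in G784E and at 7.92 and 7.01 CPM in WT. Its groups overlapped, and it did not pass (-0.13, SE 0.42; edgeR, adjusted p = 0.998). Grb10 counts were 130 and 123 times those of Ddc in G784E and 41.9 and 59.7 times in WT (exact two-sided permutation p = 0.333).

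Gab1, on chromosome 8, encodes a docking protein that couples receptor tyrosine kinases to ERK and PI3K signalling and is known as paternally expressed in placenta. It stood at 686 and 813 CPM in G784E and at 320.1 and 386 CPM in WT. The groups were well apart, at 749 ± 89.3 and 353 ± 46.5 CPM, and Gab1 rose 2.12-fold (log2 fold change 1.09, SE 0.20; edgeR, adjusted p = 0.00217).

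The Kcnq1 cluster on chromosome 7 did not move as a unit. In this cluster the paternally expressed noncoding RNA Kcnq1ot1 silences neighbours on its own chromosome where they are imprinted. The other 7 listed genes are grouped here as maternally expressed, and whether each is imprinted in these cells was not tested. Of 7 tested genes 1 rose, and the log2 fold changes ran from -1.41 to 0.99 with a median of -0.33. Phlda2, which encodes a small protein that limits placental growth, stood at 42.9 and 27.6 CPM in G784E and at 14.3 and 20.8 CPM in WT. Its groups did not overlap, yet the libraries of each group differed widely. Phlda2 rose 1.99-fold (log2 fold change 0.99, SE 0.27; edgeR, adjusted p = 0.0483), a call at the edge of the threshold that was lost under 7 of 12 alternatives. It did not pass in DESeq2 (1.00, adjusted p = 0.123), with RLE scaling (0.99, edgeR, adjusted p = 0.0533) or upper-quartile scaling (1.02, edgeR, adjusted p = 0.0825). Nor did it pass with a stricter filter (0.99, edgeR, adjusted p = 0.0656), without the ribosomal RNA gene Rn45s (0.96, edgeR, adjusted p = 0.0796), without G784E replicate 1 (0.67, edgeR, adjusted p = 0.199) or without WT replicate 1 (0.75, edgeR, adjusted p = 0.676).

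Cdkn1c, the cell cycle inhibitor gene near Phlda2, lay in the other direction without passing. It stood at 44.997 and 36.5 CPM in G784E and at 58.2 and 56.5 CPM in WT, groups that did not overlap (log2 fold change -0.50, SE 0.22; edgeR, adjusted p = 0.340). Phlda2 counts were 0.953 and 0.755 times those of Cdkn1c in G784E and 0.245 and 0.369 times in WT (exact two-sided permutation p = 0.333). Kcnq1ot1 itself stood at 350.0 and 513 CPM in G784E and at 319 and 482 CPM in WT. Replicate 2 was the higher library in either group, the groups overlapped, and the log2 fold change was 0.11 (SE 0.23; edgeR, adjusted p = 0.988). Cd81, a tetraspanin gene, stood at 253 and 274 CPM in G784E and at 338 and 326 CPM in WT, without overlap and without passing (-0.33, SE 0.20; edgeR, adjusted p = 0.582). Ascl2, a transcription factor gene of trophoblast, was low, at 1.47 and 2.47 CPM in G784E and 5.68 and 4.97 CPM in WT (-1.41, SE 0.72; edgeR, adjusted p = 0.473). The transporter gene Slc22a18 (-0.49, SE 0.74) and Tssc4 (0.21, SE 0.68) lay at 2.23 to 5.41 CPM and did not pass. Kcnq1, the potassium channel gene that Kcnq1ot1 runs through in antisense, had 5 and 8 counts in G784E and 15 and 7 in WT and was not tested.

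The Sgce-Peg10 cluster on chromosome 6 was 1 of 3 clusters in which all tested genes lay lower in G784E. Peg10, a paternally expressed gene derived from a retrotransposon and needed in placenta, stood at 1629 and 1799 CPM in G784E and at 2415 and 3041 CPM in WT. The groups did not overlap, but the WT libraries differed from each other by about as much as the gap between the groups. The log2 fold change of -0.67 (SE 0.19) missed the threshold (edgeR, adjusted p = 0.0729). Peg10 passed under 7 of 12 alternatives, among them DESeq2 (-0.67, adjusted p = 0.00918), limma-voom (-0.66, adjusted p = 0.00848) and upper-quartile scaling (-0.67, edgeR, adjusted p = 0.00401), and was short of the threshold without WT replicate 2 (-0.49, edgeR, adjusted p = 0.518). Sgce, the epsilon-sarcoglycan gene that starts beside Peg10 on the opposite strand, stood at 4.09 and 4.59 CPM in G784E and at 8.32 and 13.1 CPM in WT. It was lower in both G784E libraries and did not pass (-1.30, SE 0.42; edgeR, adjusted p = 0.129). Ppp1r9a, the neurabin gene, which is maternally expressed in some tissues, stood at 138 and 206 CPM in G784E and at 179 and 236 CPM in WT. Its groups overlapped (-0.27, SE 0.22; edgeR, adjusted p = 0.782), and its log2 fold change was 0.00 without G784E replicate 1.

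The Dlk1-Dio3 cluster on chromosome 12 also lay lower in its 3 tested genes, of which Dlk1 and Rian were low, under 10 CPM in every library. Here the paternal copy expresses Dlk1, Rtl1 and Dio3 and the maternal copy the noncoding RNAs Meg3, Rian and Mirg, whose silencing is a known feature of some stem cell lines. Meg3 stood at 20.5 and 14.7 CPM in G784E and at 42.0 and 19.8 CPM in WT. WT replicate 1 was higher than the rest and the remaining WT library lay below G784E replicate 1, so the groups overlapped (log2 fold change -0.81, SE 0.30; edgeR, adjusted p = 0.216). Meg3 passed without G784E replicate 1 (-1.05, edgeR, adjusted p = 0.0103) and without WT replicate 2 (-1.26, edgeR, adjusted p = 0.0235). Without WT replicate 1, the library highest in Meg3, Dlk1 and Rian, Meg3 was at -0.18 (edgeR, adjusted p = 0.9996), Dlk1 at -0.58 and Rian at -0.07. Dlk1, which encodes a Notch-ligand-like growth regulator, stood at 3.76 and 2.24 CPM in G784E and at 9.24 and 4.47 CPM in WT (-1.19, SE 0.60; edgeR, adjusted p = 0.459). Rian stood at 3.60 and 5.65 CPM in G784E and at 6.47 and 4.87 CPM in WT (-0.28, SE 0.54), and its direction turned to 0.02 without G784E replicate 1. The maternal Meg3 and the paternal Dlk1 thus both lay lower, each without passing. Mirg (3 and 4 counts in G784E, 13 and 2 in WT), the retrotransposon-derived Rtl1 (7 and 8 against 27 and 10) and the deiodinase gene Dio3 (0 and 0 against 5 and 4) were too low to test.

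**Figure D2:**
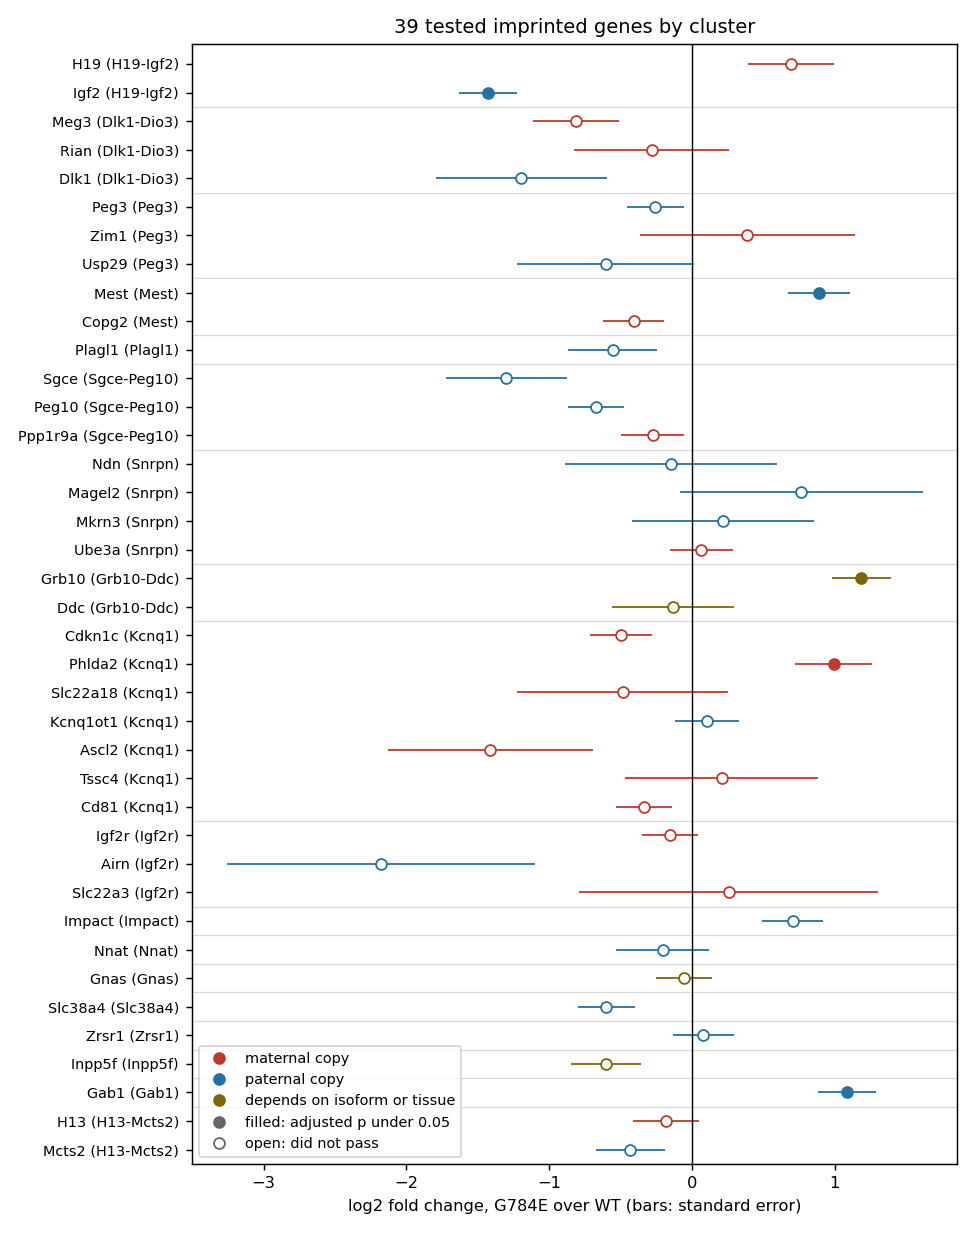
Log2 fold change of the 39 tested imprinted genes, G784E over WT, with bars for the standard error, grouped by cluster and coloured by the parental copy that is usually expressed; filled points passed at an adjusted p under 0.05. The 5 filled points lie in 5 clusters, and 7 of the 10 clusters with several tested genes hold points on both sides of 0.

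The remaining clusters of several genes held no called gene. In the Peg3 cluster on chromosome 7, Peg3, a paternally expressed zinc finger gene, stood at 889 and 978 CPM in G784E and at 955 and 1276 CPM in WT. Its groups overlapped (log2 fold change -0.26, SE 0.20; edgeR, adjusted p = 0.770). Usp29, a deubiquitinase gene that starts beside Peg3 on the opposite strand, stood at 5.24 and 2.12 CPM in G784E and at 5.28 and 5.79 CPM in WT (-0.61, SE 0.62; edgeR, adjusted p = 0.872). The maternally expressed zinc finger gene Zim1 had a mean of 4.45 ± 4.12 CPM in G784E and 3.37 ± 1.03 CPM in WT (0.39, SE 0.75), a spread wider than the difference. Peg3 and Usp29 share a promoter region and lay in the same direction, neither passing.

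In the Igf2r cluster on chromosome 17, the paternal noncoding RNA Airn silences Igf2r on its own chromosome where Igf2r is imprinted. Whether that holds in these cells was not tested. The product of Igf2r is the receptor that clears IGF2 from the cell surface. Igf2r stood at 178 and 203 CPM in G784E and at 199 and 225 CPM in WT, overlapping groups (log2 fold change -0.15, SE 0.20; edgeR, adjusted p = 0.932). Airn had 9 and 2 counts in G784E and 14 and 56 in WT, so that WT replicate 2 alone stood out (-2.18, SE 1.08; edgeR, adjusted p = 0.452). The cation transporter gene Slc22a3 stood at 3.44 and 1.30 CPM in G784E and at 3.04 and 0.914 CPM in WT (0.26, SE 1.05). The ligand gene Igf2 thus fell while no change of its receptor gene passed the test.

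In the Snrpn cluster on chromosome 7, known for Prader-Willi and Angelman syndromes in people, 0 of 4 tested genes passed in edgeR, 0 had an unadjusted p under 0.05, and the groups of all 4 overlapped. Ube3a, a ubiquitin ligase gene imprinted in neurons, stood at 64.0 and 76.0 CPM in G784E and at 53.5 and 80.1 CPM in WT (log2 fold change 0.07, SE 0.22; edgeR, adjusted p = 0.998). The ubiquitin ligase gene Mkrn3 stood at 4.75 and 4.59 CPM in G784E and at 2.38 and 5.58 CPM in WT (0.22, SE 0.64). Ndn and Magel2, which encode MAGE-family proteins, had log2 fold changes of -0.15 (SE 0.74) and 0.77 (SE 0.85). All 4 genes changed direction between the libraries numbered 1 and those numbered 2. Snrpn, which encodes a splicing protein, had 2 and 4 counts in G784E and 2 and 1 in WT, and Snurf had 0 and 0 against 0 and 1. In GENCODE M21 all exon bases of Snurf (100%) and 34.1% of those of Snrpn are shared with other genes. How many reads were left out of these genes for that reason was not tested, so their counts are an uncertain measure of expression.

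In the H13-Mcts2 cluster on chromosome 2, the paternally expressed retrogene Mcts2 lies within an intron of the signal peptide peptidase gene H13. Mcts2 stood at 21.9 and 25.9 CPM in G784E and at 28.9 and 35.7 CPM in WT, without overlap and without passing (log2 fold change -0.43, SE 0.24; edgeR, adjusted p = 0.540). H13 stood at 52.7 and 73.7 CPM in G784E and at 58.1 and 85.5 CPM in WT (-0.18, SE 0.23; edgeR, adjusted p = 0.928). Its sign turned without G784E replicate 1 (0.06) and without WT replicate 2 (0.12), so the shared direction of the pair rests on single libraries.

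Among imprinted genes that stand alone in the list, beside Gab1, Impact and Zrsr1 lay above 0 and 5 lay below 0, none passing. Impact, on chromosome 18, restrains the amino acid sensor kinase GCN2 and is paternally expressed. It stood at 117 and 124 CPM in G784E and at 60.9 and 87.0 CPM in WT (log2 fold change 0.70, SE 0.21; edgeR, adjusted p = 0.0912). Impact passed under 5 of 12 alternatives, among them limma-voom (0.72, adjusted p = 0.0146), upper-quartile scaling (0.71, edgeR, adjusted p = 0.0367) and either G784E library left out (0.76 and 0.69, edgeR, adjusted p = 0.0184 and 0.0388). With WT replicate 1 left out it was at 0.47 (edgeR, adjusted p = 0.956) and with WT replicate 2 left out at 0.99 (edgeR, adjusted p = 0.0591), neither passing. Slc38a4, a paternally expressed amino acid transporter gene of placenta and liver, stood at 159 and 191 CPM in G784E and at 245 and 285 CPM in WT. Its groups were clearly apart, and it did not pass (-0.60, SE 0.20; edgeR, adjusted p = 0.151). Slc38a4 passed under 3 of 12 alternatives, among them limma-voom (-0.60, adjusted p = 0.0499) and upper-quartile scaling (-0.60, edgeR, adjusted p = 0.0266).

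Inpp5f, a phosphoinositide phosphatase gene with an imprinted short form, stood at 18.5 and 21.2 CPM in G784E and at 28.5 and 31.8 CPM in WT (log2 fold change -0.60, SE 0.24; edgeR, adjusted p = 0.287). Plagl1, a paternally expressed zinc finger gene that regulates other imprinted genes, stood at 10.6 and 9.07 CPM in G784E and at 14.8 and 14.1 CPM in WT (-0.56, SE 0.31; edgeR, adjusted p = 0.549). In both cases the G784E libraries lay below the WT libraries. Nnat, the neuronatin gene within an intron of Blcap, stood at 10.3 and 9.89 CPM in G784E and at 12.1 and 11.2 CPM in WT (-0.21, SE 0.33). Gnas, a complex locus for the stimulatory G protein with transcripts from either copy, stood at 266 and 319 CPM in G784E and at 301 and 308 CPM in WT (-0.05, SE 0.20). Zrsr1, a splicing-factor retrogene within Commd1, stood at 52.4 and 46.8 CPM in G784E and at 43.2 and 50.4 CPM in WT (0.08, SE 0.21). Gnas and Zrsr1 overlapped between groups.

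Neighbours within a cluster often lay in opposite directions. Of 10 clusters with at least 2 tested genes, all tested genes lay lower in 3 (Dlk1-Dio3, Sgce-Peg10 and H13-Mcts2, each with the single-library exception given above), all lay higher in 0, and 7 held both directions. Of 43 pairs of tested genes within a cluster, 21 pairs (48.8%) had the same direction, against 53.0% of 698 pairs from different clusters. The median difference in log2 fold change was 0.70 within clusters and 0.70 between them. Among genes at a mean of 10 CPM or more, 4 of 10 pairs within clusters had the same direction, against 52.4% of 290 pairs between clusters. The pairs share genes and libraries, so these shares are descriptions without a test.

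Maternally and paternally expressed genes were found on both sides of 0. The 16 tested maternally expressed genes had a median log2 fold change of -0.23 (6 above and 10 below 0, 1 higher called), and the 19 paternally expressed genes had one of -0.26 (7 above and 12 below 0, 2 higher and 1 lower called). The 4 genes grouped here as depending on the isoform or tissue (Grb10, Ddc, Gnas and Inpp5f) had a median of -0.09. The maternal and paternal groups also hold genes whose imprinting is described above for particular tissues, such as Ppp1r9a, Ube3a and Gab1. Which copy these cells express was not tested for any gene, so the grouping is by the copy usually expressed. The median of all 39 was -0.21, with 25 of 39 below 0, against 0.00 over all tested genes. The libraries of the groups did not overlap for 22 of 39 imprinted genes (6 higher and 16 lower in G784E, 56.4%), where 38.8% of all tested genes were without overlap. At a mean of 10 CPM or more, the shares were 64.0% of 25 and 47.6% of all.

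**Figure D3:**
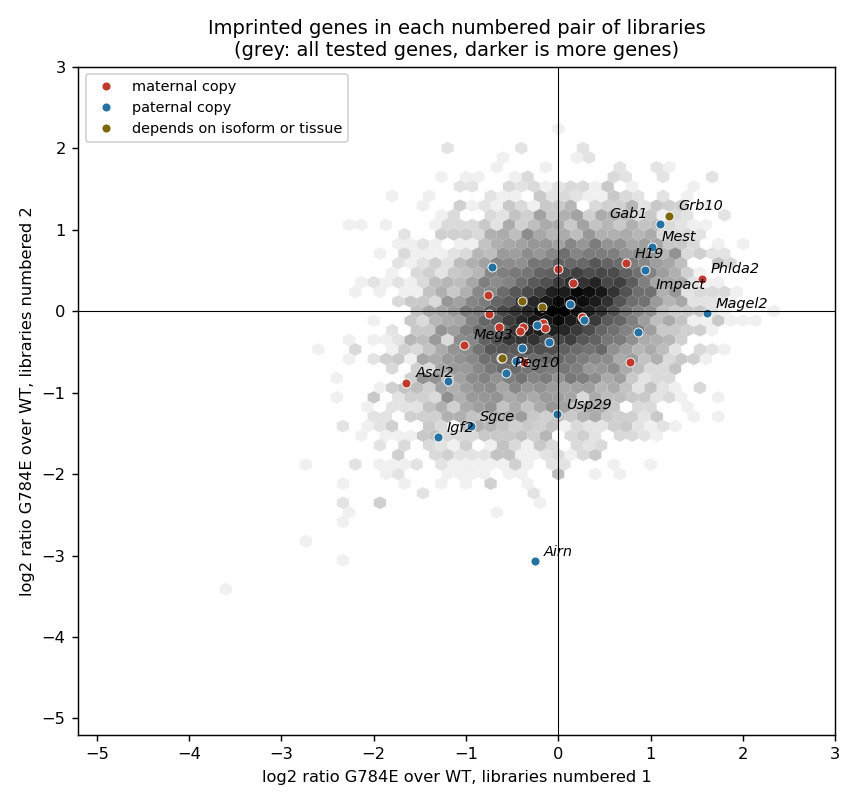
Log2 ratio of G784E over WT (0.5 CPM added) in the libraries numbered 1, on the horizontal axis, and in those numbered 2, on the vertical axis, for the 39 tested imprinted genes, coloured by the usually expressed copy, over all tested genes in grey. Grb10, Gab1 and Mest lie far above 0 and Igf2 far below 0 on both axes, while Magel2, Usp29 and Airn are displaced on 1 axis.

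Compared within same-numbered libraries, the imprinted genes repeated their direction in 29 of 39 cases, where 62.5% of all tested genes did. At a mean of 10 CPM or more it was 22 of 25 cases, where 68.9% of all genes at that level did. The log2 ratios of Grb10 were 1.20 and 1.17, those of Gab1 1.10 and 1.07, those of Mest 1.02 and 0.79, and those of Igf2 -1.30 and -1.55. These 4 genes thus had ratios of similar size in either comparison. They were called from the same 4 libraries and their groups did not overlap, so their shared direction was fixed in advance. Phlda2 differed more, at 1.55 and 0.40. Of the 39 genes, 14 had a mean under 10 CPM, and among them Airn (-0.25 and -3.07) and Magel2 (1.61 and -0.03) showed how far low counts can spread. Per kilobase of exon in GENCODE M21, the highest WT levels were those of Peg10 (409 CPM per kb), Cd81 (115), Peg3 (83.7), Gab1 (69.5) and Slc38a4 (62.2), while Igf2 stood at 34.0 and H19 at 5.51 CPM per kb.

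Of 29 listed genes for factors linked to setting, keeping or removing imprints, 26 had enough counts to be tested. Of these 26, 2 rose and 1 fell (11.5%, where 2.56% of all tested genes were called). Their median log2 fold change was 0.20. Trim28, the co-repressor that ZFP57 brings to imprinting control regions, rose 1.95-fold (1847 and 1579.7 CPM in G784E, 745 and 1016 CPM in WT; edgeR, adjusted p = 0.00806). Dnmt3a, whose product sets new DNA methylation, rose 2.70-fold (edgeR, adjusted p = 7.88e-05), and Dnmt3l, its cofactor in germ cells, fell 2.56-fold (edgeR, adjusted p = 0.000399). Zfp57 itself stood at 637 and 737 CPM in G784E and at 543 and 760.0 CPM in WT, overlapping groups (0.08, SE 0.21; edgeR, adjusted p = 0.996). The maintenance methyltransferase gene Dnmt1 stood at 709 ± 54.3 CPM in G784E and 630.5 ± 36.5 CPM in WT (0.17, SE 0.19; edgeR, adjusted p = 0.907). The insulator protein gene Ctcf, whose product binds the H19-Igf2 control region, stood at 365 and 408 CPM in G784E and at 251 and 340.3 CPM in WT (0.39, SE 0.21; edgeR, adjusted p = 0.514).

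Of 23 tested further imprinted genes, 1 passed (4.35%, where 2.56% of all tested genes were called). Sfmbt2, a Polycomb-related gene expressed from the paternal copy in early embryos and placenta, fell 2.80-fold, by 1.49 on the log2 scale (SE 0.22; edgeR, adjusted p = 0.000117). It stood at 43.5 and 34.7 CPM in G784E and at 99.0 and 119.6 CPM in WT. Both G784E libraries lay below both WT libraries. The median of these 23 genes was -0.05, and their values ran from -3.52 to 0.75. Of 37 tested genes that flank the clusters and are not known as imprinted, 0 passed edgeR's test, where 2.56% of all tested genes did. Their median was -0.07 and their lowest adjusted p in edgeR was 0.191. At an unadjusted p under 0.05 there were 3 of these 37, where 11.6% of all tested genes reached that level. With so few genes called, the further imprinted and the flanking genes cannot be told apart by these counts. The endoderm markers given beside Igf2 moved with Sfmbt2 too, and their part was not tested.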

How the data were processed

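RNA-seq counts of 4 libraries (2 G784E, 2 WT, groups and replicate numbers from the titles) were analysed. The authors deposited whole-number read counts per gene, not normalized; the submitters' processing notes name build mm9, the aligner Bowtie2 2.1.0, base calling with CASAVA 1.8.2, and HTSeq and DESeq2. The gene annotation, the counting mode and whether strand was used are not given in those notes. Summary rows (reads without a gene, ambiguous or not unique) held 83.3% to 88.7% of each table and were left out.

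edgeR 4.0.16 in R 4.3.3 (filterByExpr, minimum count 10 and total 15; TMM; group alone, 2 residual degrees of freedom; quasi-likelihood test, Benjamini-Hochberg over 15763 genes, threshold 0.05) was the main test, checked on simulated counts. The SE is the log2 fold change divided by the square root of F. Replicates differed beyond sampling noise (chi-square per degree of freedom 17.2 in G784E and 9.78 in WT); floors cover counting error only.

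The members and lists were chosen with earlier results of these data known. Values per library were given for genes past the threshold, the 2 tested genes of highest mean CPM in each cluster and genes listed alone; further genes, and the 4 ratios of neighbours, were chosen after their values were seen. Alternatives tried: upper-quartile or RLE scaling, a stricter filter (1 CPM in 2 libraries and 50 counts) or none, DESeq2 1.42.0, limma-voom (limma 3.58.1), a replicate block, each library left out (1 residual degree of freedom, the lone library assumed to vary like the other group) and, chosen after seeing the data, no Rn45s.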

Additional observations from a re-analysis of the deposited data

How the results depend on the processing

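Igf2, Grb10 and Gab1 kept their calls under all 12 alternatives run, with log2 fold changes of -1.51 to -1.32, 1.03 to 1.36 and 0.96 to 1.23. Mest lost its call under 1 and Phlda2 under 7, and none of these 5 changed sign. Against 4 higher and 1 lower imprinted gene, 3 were lower with upper-quartile scaling and in limma-voom, 2 lower with the stricter filter, in DESeq2 and without Rn45s. With a library left out, 2 to 6 were higher (2 without WT replicate 1, 6 without G784E replicate 2) and 1 to 2 lower. The median of the imprinted genes, -0.21, was -0.30 with no filter and ran from -0.32 to -0.17 with a library left out. Over all genes, 106 were higher and 298 lower; limma-voom called 186 higher, and leaving out a library gave 29 to 307 higher and 156 to 532 lower. With a replicate block, 546 genes were higher and 658 lower, and among imprinted genes 5 were higher (the main 4 and Impact) and 4 lower (Igf2, Peg10, Slc38a4 and Sgce). The pairing of numbers comes from no label: libraries of the same number deviated together (r = 0.49 across genes, which are not independent replicates), and 2 pairs are too few to take the numbers as pairing. DESeq2 gave no adjusted p for Airn and Slc22a3. A floor of 3 counts stood for 0.305 to 0.491 CPM, so falls of the 14 genes under 10 CPM were hard to detect.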
